A study of Homo sapiens with 2 samples.

Results

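Of 603 single-exon features with the length of box H/ACA RNAs, 89 had at least 20 deposited counts over both libraries and were selected on that sum. The length window ends at 140 bases, its lower limit stands with the processing, and the median length of the members was 133 bases. They lay on 20 chromosomes, and all of chromosome 1, the mitochondrial genome and the features that start before base 10000000 of chromosomes 13, 14, 15, 21 and 22 were left out. The whole annotation, of the CHM13 genome draft version 1.1, holds 63494 features. Length alone did not pick out H/ACA RNAs. RefSeq names could be assigned to 84 of the 89 features, of which 40 were SNORA genes and 7 were SCARNA genes. The remaining named features were 20 pseudogenes of 5S rRNA, 7 spliceosomal snRNA genes or pseudogenes, 8 RefSeq snoRNAs without a family symbol, the box C/D snoRNA SNORD94 and MIR1302-8. The set is therefore described as short features of H/ACA length, with the 47 SNORA and SCARNA features as its H/ACA group.

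Box H/ACA RNAs fold into hairpins joined by a hinge, and they assemble with dyskerin, NOP10, NHP2 and GAR1 into particles that turn selected uridines into pseudouridine. SNORA RNAs act in the nucleolus, mostly on ribosomal RNA, whereas SCARNA RNAs act on spliceosomal snRNAs in Cajal bodies. In human cells most of them are cut out of the introns of host genes, so that the mature RNA and the spliced host mRNA part after transcription. Ku80, encoded by XRCC5, forms the Ku heterodimer with Ku70 and recruits the kinase DNA-PKcs.

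The RNA came from HEK293T, an established cell line made from human embryonic kidney. The cells had either SFB-Ku80, which is Ku80 with tandem FLAG and streptavidin-binding tags, or the SFB empty vector, with 1 library each, and both were exposed to the same agents. Those were 0.1 mM 6-thioguanosine (6SG), a photoreactive nucleoside, and 0.4 J/cm2 of 365 nm light, before purification on streptavidin and then FLAG beads (PAR-CLIP). Where a pair of counts is given, the first is that of SFB empty vector and the second that of SFB-Ku80. With 1 library per condition no difference below has a replicate check or a p-value, and all intervals are 95% counting intervals, which cover counting error only. They treat every count as independent, so they are too narrow wherever both reads of a pair were counted. More of an RNA in the cells and more of it on the beads cannot be told apart, since no input library was analysed here.

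The libraries held 19202522 (SFB empty vector) and 14512399 (SFB-Ku80) counts outside the 219 units of 45S pre-rRNA, which were set aside from the scaling total. XRCC5 itself had 1118 and 43907 counts, so the tagged gene was the higher in the library labelled with it. A pair of chromosome 17 features took 46.0% of all SFB-Ku80 counts against 2.26% of those in SFB empty vector. For this reason each log2 ratio of SFB-Ku80 to SFB empty vector is given after subtracting that of the median feature (-0.73, over 24380 features of the same chromosomes with at least 20 counts), and is called the relative log2 ratio. The HEK293-expressed genes LIN28B (642 and 87 counts), PAX2 (223 and 272), NEFL (244 and 39) and NEFM (345 and 33) were all counted. Of the genes of other cell types, HBB had 1 and 0 counts, CD3E had 31 and 8, and PTPRC had 113 and 91. Their part in the results was not tested.

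The 89 features together held 17650 counts in SFB empty vector, which is 0.0919% (Wilson interval 0.0906 to 0.0933) of the counts outside the 45S units. In SFB-Ku80 they held 9881 counts, or 0.0681% (0.0668 to 0.0694). Their share was thus 0.741 times as large in SFB-Ku80. This total still held the pair of chromosome 17 features, with 46.0% of all SFB-Ku80 counts and 2.26% of those in SFB empty vector, so the ratio depends on them. Those percentages are of all counts, with the 45S units included. Without the pair in the total, the members' median log2 ratio before centring was 0.58, against -0.60 with it. The same shift applies to the members' share, which without the pair would be the larger in SFB-Ku80. Its value was not computed. Counted from uniquely mapped read pairs only, the direction was the opposite, with 0.101% and then 0.279%. The count of a single feature ran from 3 to 3884 with a median of 66 in SFB empty vector, and from 0 to 1735 with a median of 38 in SFB-Ku80. At least 20 counts were reached in each library by 58 features, in SFB empty vector only by 19, in SFB-Ku80 only by 5 and in neither library alone by 7.

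The make-up of these counts differed between the libraries. SNORA features took 37.1% of the members' counts with the SFB empty vector but 65.9% with SFB-Ku80. In contrast, snRNA features took 33.0% and 6.47%, and SCARNA features 12.7% and 5.00%. Most snRNA counts in SFB empty vector lay on RNU1-88P (3884 of 5823), and the other 6 snRNA features had 1939 and 542 counts. Pseudogenes of 5S rRNA took 7.69% and 6.97%. In SFB empty vector the 8 best counted features were RNU1-88P (3884), SCARNA21 (1725), RNU1-103P (1460), SNORD94 (1056), SNORA75 (858), SNORA40B (768), SNORA2A (424) and RNA5SP145 (361). In SFB-Ku80 the 8 were SNORA7B (1735), CHM13_G0031369 (500), SNORA35B (494), SNORA13 (484), LOC124900495 (390), SNORD94 (385), RNU1-103P (374) and SNORA24B (356). Only 2 features, SNORD94 and RNU1-103P, were in both lists. The plot of counts in the libraries shows SNORA7B and SNORA35B far above the line of the median feature and RNU1-88P far below it.

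**Figure D1:**
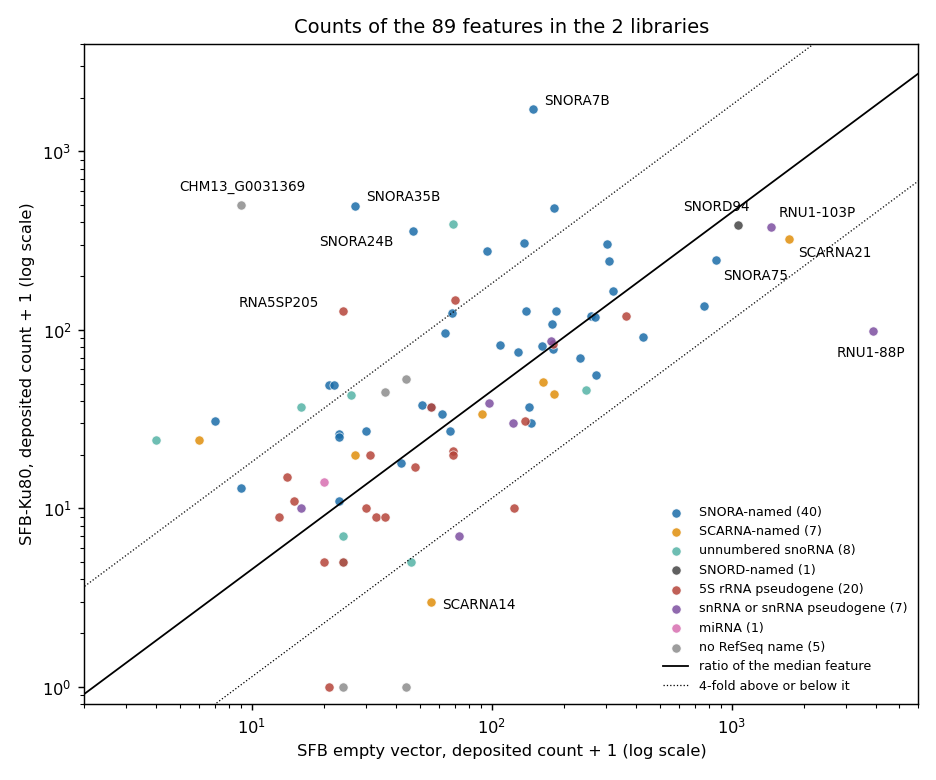
Deposited count plus 1 of each of the 89 features in SFB empty vector (horizontal, log scale) and SFB-Ku80 (vertical, log scale), 1 library each, coloured by kind of RNA. The solid line is the ratio of the median feature and the dotted lines are 4-fold above and below it, with 17 features on or above the upper line and 8 on or below the lower line.

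The median relative log2 ratio of the 89 features was 0.13, with a range from -4.33 to 6.93, and 49 of them were over 0. A feature was counted as higher or lower when it was at least 4-fold from the median feature. By this measure 17 members (19.1%) were higher in SFB-Ku80 and 8 (8.99%) were lower. Among all 24380 features of the same chromosomes 6.78% were higher and 10.7% lower, and among the 3791 features with 1 exon 12.6% were higher and 12.5% lower. These shares are a description, since some members reached the count limit only through the library in which they were high. Of the 17 higher members 5 had under 20 counts in SFB empty vector, and of the 8 lower members 7 had under 20 counts in SFB-Ku80. In a count added after the values were seen, 12 of the 58 members with at least 20 counts in each library were higher and 1 was lower. This count cannot compare the directions, because its limit took out 7 of the 8 lower members but 5 of the 17 higher ones. Shares over all features under that limit were not computed. The lower calls of RNA5SP449 and CHM13_G0018552, with 0 counts in SFB-Ku80, rest on the pseudocount, as a floor of 3 counts gives them less than 4-fold. Before the median feature was subtracted, the members' median was -0.60, with 9 higher and 11 lower, and with all counts as the total it was -0.86, with 9 higher and 17 lower. Of the 46 members with at least 100 counts, 11 were higher and 2 were lower.

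The spread was unequal among the kinds of RNA. The 40 SNORA features had a median relative log2 ratio of 0.65 (-0.08 before the median feature was subtracted), with 10 higher, 0 lower and 30 in between. The 7 SCARNA features had a median of -0.55, with 1 higher and 1 lower. The 42 features outside these groups had a median of -0.41, with 6 higher and 7 lower. Within them, the 20 5S rRNA pseudogenes had a median of -0.46 (2 higher, 2 lower), the 7 snRNA features -0.83 (0 higher, 2 lower) and the 8 snoRNAs without a family symbol 0.61 (3 higher, 1 lower). Among the SNORA features the 27 with at least 100 counts had a median of 0.41 and held 7 of the 10 that were higher.

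**Figure D2:**
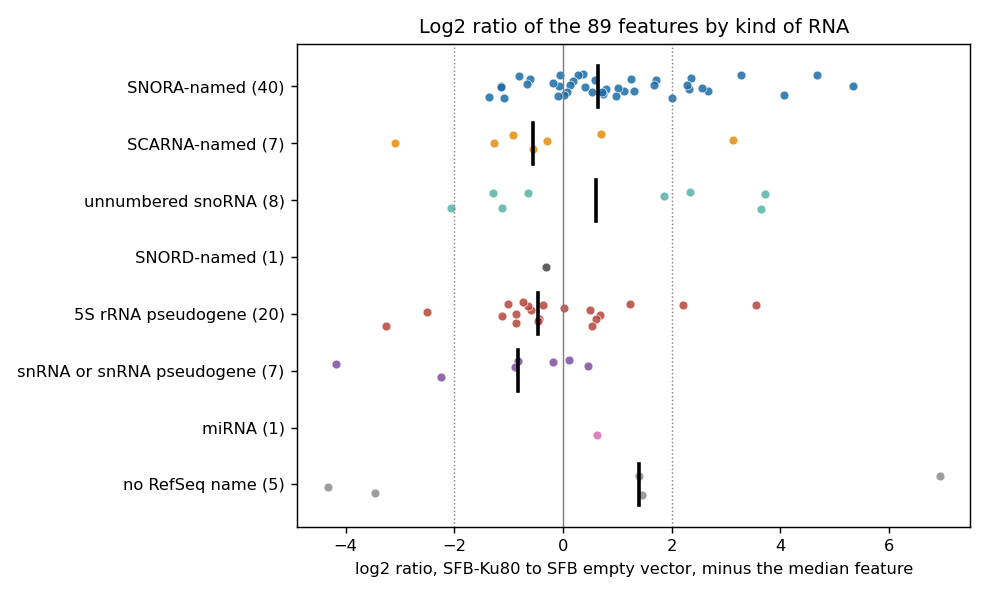
Relative log2 ratio of SFB-Ku80 to SFB empty vector for each of the 89 features, grouped by kind of RNA with the number of features in parentheses, 1 library per condition. Vertical bars are medians and dotted lines mark 4-fold; the SNORA row has 10 points at or beyond the upper line and 0 beyond the lower one.

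Among the SNORA features the highest relative log2 ratios belonged to 3 that carry the letter B as members of named families. SNORA35B (chrX:113534893-113535021, minus strand, 129 bases) had 26 and 494 counts, a relative log2 ratio of 5.33 (counting interval 4.81 to 6.01). It lies inside LRCH2, a leucine-rich repeat gene, whose exons gave 487 and 78 counts, a relative log2 ratio of -1.49. SNORA7B (chr3:132142035-132142173, minus strand, 139 bases) had 148 and 1735 counts, a relative log2 ratio of 4.68 (4.44 to 4.94). This made it the member with the most counts in SFB-Ku80, where it held 17.6% of the members' counts. Its host, the ribosomal protein pseudogene RPL32P3, had 377 and 78 counts. SNORA24B (chr15:63094814-63094944, minus strand, 131 bases) had 46 and 356 counts, a relative log2 ratio of 4.06 (3.64 to 4.56), inside PARP16, which had 103 and 74. Coordinates are those of the CHM13 genome draft version 1.1.

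The uniquely mapped read pairs of these features also lay far apart. SNORA35B had 11 and 186 unique pairs, SNORA7B 62 and 488, and SNORA24B 20 and 175. Their close relatives were not counted. SNORA7A, SNORA24 and SNORA35 had 0 counts in both libraries. SNORA7A and SNORA24 overlap an exon of another feature, and a read on more than 1 feature was not assigned by the counter. How much of each feature is overlapped was not examined, and whether this accounts for their 0 counts was not tested. SNORA35 overlaps no other exon.

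The well-counted SNORA49 and SNORA13 were higher too. SNORA49 (chr12:132080060-132080195), inside the chromatin gene EP400, had 94 and 275 counts, a relative log2 ratio of 2.67 (2.34 to 3.04). SNORA13 (chr5:112671939-112672071), which directs a pseudouridine in 18S rRNA, had 181 and 484 counts, a relative log2 ratio of 2.55 (2.30 to 2.81). SNORA63D, with few reads, had 6 and 30 counts and a ratio of 3.28.

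The CCT6 genes form a group of their own. CCT6A, which encodes a subunit of the cytosolic chaperonin, and its pseudogenes CCT6P1 and CCT6P3 each enclose copies of SNORA15 and SNORA22, 6 members in all. All 6 had relative log2 ratios over 0, from 1.25 to 2.36, and 4 were higher by the 4-fold measure. SNORA22 (chr7:66977656-66977789) had 135 and 307 counts (relative log2 ratio 2.31), and SNORA22C (chr7:66272186-66272319) had a ratio of 2.01. SNORA22B, at the count limit, had 8 and 12. SNORA15 had 22 and 24 counts, SNORA15B-1 21 and 48, and SNORA15B-2 20 and 48. The enclosing features lay below the median feature, with relative log2 ratios between -2.32 and -1.72. Near-identical copies share reads here, since multimapping reads were counted at each place. SNORA15B-1 and SNORA15B-2 had 1 unique pair and 0 unique pairs in all, so their counts cannot be assigned to a single copy. Both are among the 4 higher features here and the 17 higher members, so the same reads may enter these numbers under each name. SNORA22 had 47 and 114 unique pairs.

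Members of the same SNORA family did not always go together. SNORA2A had 424 and 90 counts (relative log2 ratio -1.09), and SNORA2B, in the same host KANSL2, had 29 and 26 (0.98). The counting intervals of the pair, -1.45 to -0.77 and 0.15 to 1.79, did not overlap, but those by unique pairs, -0.91 to 0.15 and -0.18 to 2.64, did. SNORA38, in PRRC2A, had 319 and 165 counts (0.19), while SNORA38B, in NOL11, had 270 and 55 (-1.14, and 0.08 by unique pairs). Both SNORA5 copies in TBRG4 were over the median feature, with 127 and 74 counts for SNORA5A (0.36) and 126 SFB-Ku80 counts for SNORA5C (interval 0.64 to 1.36). The 3 SNORA80 features ran from 0.02 (SNORA80A, 258 and 119 counts, in URB1) through 0.41 (SNORA80B, 177 and 107, in ODC1) to 1.12 (SNORA80D, 302 and 300, in AIMP2).

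At the other end of the SNORA group, no feature was 4-fold lower. The lowest was SNORA40B (chr2:135577103-135577230), in RAB3GAP1, with 768 and 135 counts and a relative log2 ratio of -1.37 (-1.65 to -1.11). SNORA79 had 142 and 36 counts (-0.82). SNORA9B was below the median feature by all alignments (-1.15) but above it by unique pairs (0.89, 22 and 9 pairs). SNORA75, the SNORA feature with the most counts in SFB empty vector, had 858 and 245 counts and a ratio of -0.67 (0.24 by unique pairs). In between lay well-counted features close to the median feature, such as SNORA28 (161 and 80, 0.13), SNORA58 (179 and 77, -0.07), SNORA10B (269 and 117, -0.06) and SNORA33 (184 and 126, 0.59). SNORA65, in the ribosomal protein gene RPL12, had 307 and 242 counts (0.79), and SNORA47 had 107 and 81 (0.74). The last SNORA features with at least 100 counts were SNORA3B (233 and 69, -0.61) and SNORA46 (63 and 95, 1.72). The 13 SNORA features with fewer counts ran from -0.18 to 3.28, and 3 of them were higher.

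The SCARNA features lay below the SNORA features, at medians of -0.55 and 0.65. SCARNA21 (chr17:7811533-7811671), in CHD3, had 1725 and 324 counts, a relative log2 ratio of -1.28 (-1.45 to -1.11). By unique pairs (845 and 163) its ratio was -0.28, and by sense pairs 0.04. SCARNA18 had 181 and 43 counts (-0.91), SCARNA23 163 and 50 (-0.55) and SCARNA22 90 and 33 (-0.29). The extremes of this group had few counts. SCARNA14 had 55 and 2 counts (-3.09, interval -6.73 to -1.73), SCARNA20 had 5 and 23 (3.13, 1.91 to 5.09) and SCARNA8 had 26 and 19 (0.70). Thus only SCARNA14 and SCARNA20 passed 4-fold, in opposite directions, and both on fewer than 100 counts.

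The features that enclose these RNAs allow the small RNA to be set beside the exons of the gene around it. Of the 47 SNORA and SCARNA features, 45 lie inside a counted feature of the same strand, and 38 of the 45 had a higher relative log2 ratio than it. The median of the difference was 2.00 on the log2 scale, and 23 features were at least 4-fold over their host. The hosts themselves had a median relative log2 ratio of -1.34, so a feature with the ratio of the median feature would also lie above most of them. The same share over all enclosed features of the annotation was not computed. For the SNORA group alone, 34 of 38 were higher than the host, with a median difference of 2.49. Large gaps were seen in ribosomal protein genes, where SNORA65 (0.79) lies in RPL12 (8370 and 549 counts, -2.79) and SNORA33 (0.59) in RPS12 (4547 and 299 counts, -2.79). The exceptions with the widest gap below the host were SCARNA14, at -3.09 against -1.50 for TIPIN, and SNORA79, at -0.82 against 0.60 for GTF2A1. Several members share a host, so the 45 differences are not independent. The 10 members of other kinds with a host showed a median difference of 0.22, with 5 of the 10 higher than the host.

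**Figure D3:**
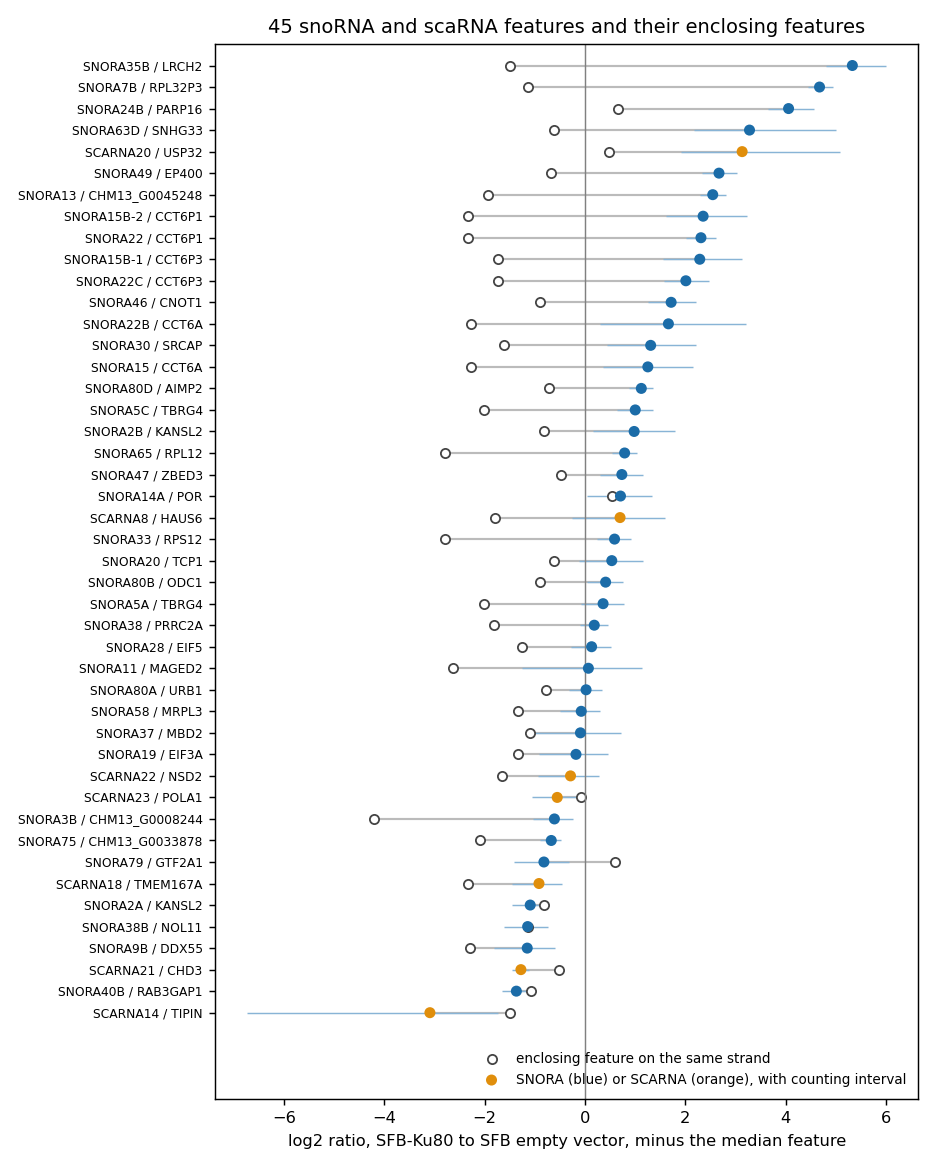
Relative log2 ratio of 45 SNORA (blue) and SCARNA (orange) features and of the same-strand features that enclose them (open circles), joined by grey lines, 1 library per condition. Blue bars are 95% counting intervals; in 38 of 45 rows the snoRNA or scaRNA lies to the right of its enclosing feature.

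Most protein genes of the pathway lay below the median feature. DKC1, which encodes the pseudouridine synthase dyskerin, had 1538 and 245 counts, a relative log2 ratio of -1.51. NHP2 (544 and 80, -1.62) and GAR1 (405 and 43, -2.07), the other core proteins found, were also below the median feature, and GAR1 was 4-fold lower. The assembly factors NAF1 (408 and 262, 0.50) and SHQ1 (0.38) were slightly above it. The box C/D core genes FBL (-2.88), NOP56 (-2.53), NOP58 (-1.71) and SNU13 (-0.90) were all below, the first 2 of them by more than 4-fold. In all, 3 of the 9 genes were lower and 0 were higher, beside 10.7% lower and 6.78% higher over all features. By unique pairs only FBL was 4-fold lower (-2.13), as GAR1 was at -1.66 and NOP56 at -1.64. NOP10 and TERC were not analysed here.

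The highest relative log2 ratio of all 89 belonged to a feature without a RefSeq name. CHM13_G0031369 (chr2:85362809-85362936, minus strand, 128 bases) lies between RETSAT and RN7SL113P, and it had 8 and 500 counts. Its relative log2 ratio was 6.93 (6.11 to 8.32), about 122-fold over the median feature. Almost all of these reads mapped to a single place, since 7 and 483 were unique pairs, and 481 of the 483 SFB-Ku80 pairs were sense. Among the snoRNAs without a family symbol, LOC124900495 (chrX:131477486-131477624) was the best counted, with 68 and 390 counts and a ratio of 3.64 (3.28 to 4.05). LOC124900517 (3 and 23 counts, 3.72) and LOC124900305 (15 and 36, 2.34) were higher on few counts. LOC124900552 had 245 and 45 counts (-1.29), and its unique pairs were split evenly over the strands, with 47 sense and 50 antisense in SFB empty vector. Its ratio by unique pairs was 0.06 and by sense pairs 0.44. LOC124900534 (45 and 4, -2.07) was the lower one, and LOC124900238 (25 and 42, 1.86), LOC124902824 (23 and 6, -0.64) and LOC124900400 (23 and 4, -1.13) lay in between.

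The best counted feature in SFB empty vector was of the snRNA kind. The feature placed by its neighbours on RNU1-88P, a pseudogene of the U1 snRNA (chr6:36460187-36460314), had 3884 and 97 counts. This was the largest count of any member in either library, and the relative log2 ratio was -4.18 (-4.50 to -3.90). Of its reads, 734 and 25 were unique pairs. RNU1-103P, also of the U1 family (chr16:91847298-91847422), had 1460 and 374 counts (-0.83). It had only 174 and 40 unique pairs, and its ratio by these was -0.002. The minor spliceosome snRNAs RNU4ATAC and RNU6ATAC had 121 and 29 counts (-0.89) and 175 and 86 counts (0.12). The U4 pseudogene RNU4-10P was lower (72 and 6 counts, -2.25), and RNU4-82P (96 and 38, -0.18) and RNU4-70P (15 and 9, 0.46) were not. SNORD94 (chr2:86137932-86138068), a box C/D RNA that directs methylation of the U6 snRNA, had 1056 and 385 counts and a ratio of -0.32 (-0.49 to -0.15). MIR1302-8 had 19 and 13 counts and no unique pair.

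For the 20 features of the 5S rRNA pseudogene family, 6 had at least 100 counts. RNA5SP145 had 361 and 119 counts (-0.46), RNA5SP355 179 and 82 (0.02), and RNA5SP267 137 and 30 (-1.02). RNA5SP374 was higher, with 69 and 147 counts (2.21, 1.80 to 2.66) and 35 and 69 unique pairs. RNA5SP248 was lower, with 123 and 9 counts (-2.50, -3.80 to -1.67). RNA5SP205 had 23 and 127 counts (3.55), but only 2 and 1 unique pairs, so nearly all its counts came from reads that also map elsewhere. Without it the family had 1 higher and 2 lower members and a median of -0.46. RNA5SP449 had 20 and 0 counts, and against a floor of 3 counts it was at least 3.04-fold lower relative to the median feature.

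The other features with 0 counts in SFB-Ku80 were CHM13_G0018552, with 23 counts in SFB empty vector, and CHM13_G0022759, with 43. By the same floor they were at least 3.49-fold and 6.53-fold lower. CHM13_G0022759 overlaps an exon of a neighbour and had 0 unique pairs. The last features without a RefSeq name, CHM13_G0005518 (43 and 52 counts, 1.40) and CHM13_G0005522 (35 and 44, 1.46), lie near each other on chromosome 10 and had 6 and 5 and then 1 and 1 unique pairs.

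Counting uniquely mapped read pairs in place of all alignments raised the relative log2 ratio of most members. At least 20 unique pairs were held by 63 members, and their median relative log2 ratio was 0.92, with 14 higher and 1 lower. Shares over all features by unique pairs were not computed, so these counts do not set the members apart. In the other length classes given below, from shortest to longest, the medians by unique pairs were 0.47, 0.81, -1.53, 6.27 and 0.75. Of the members called higher, 11 had at least 20 unique pairs and all 11 were higher by unique pairs as well. Unique pairs come from the same reads and raised most ratios, so they cannot check the higher or lower calls independently. Of the 3 called lower with at least 20 unique pairs, only RNU1-88P was lower by unique pairs (-2.73), while SCARNA14 (27 and 1 unique pairs) and RNA5SP248 (67 and 7) kept their sign but missed 4-fold. Of the 63 members, 19 lay below the median feature by all alignments and above it by unique pairs, and 0 the other way. They included SNORD94 (0.69 by unique pairs), RNA5SP145 (0.79), RNU4ATAC (0.64) and SCARNA23 (0.38). The median SNORA ratio was 1.30 over 34 features.

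**Figure D4:**
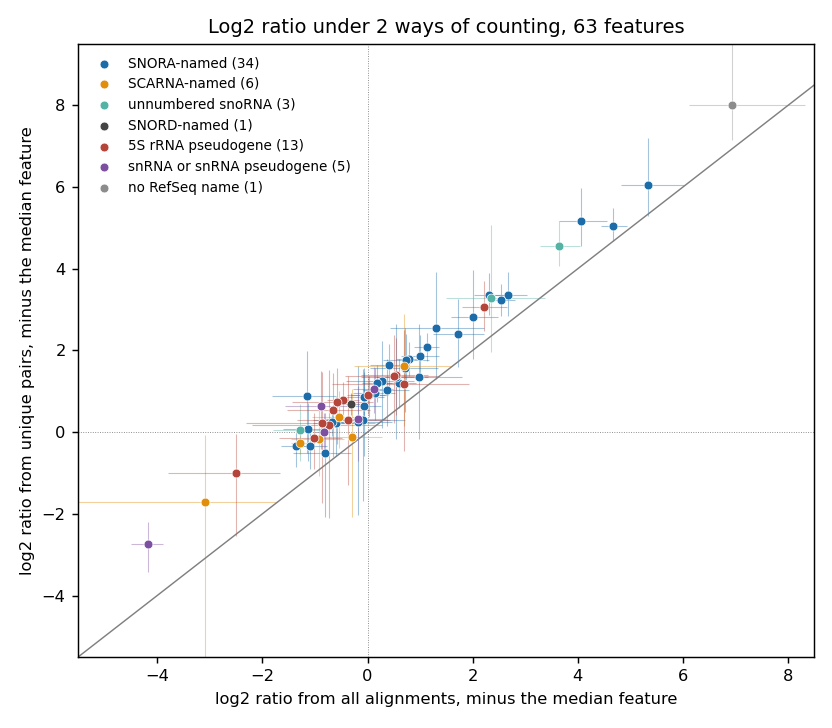
Relative log2 ratio from all alignments (horizontal) against that from uniquely mapped read pairs (vertical) for the 63 members with at least 20 unique pairs, 1 library per condition. Bars are 95% counting intervals, some of which run off the axes, and the diagonal marks equal values; most points lie above it, and the median by unique pairs is 0.92.

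The reads had the strand of the annotated features. Over the 63 members with at least 20 unique pairs, 93.1% of the stranded pairs were sense with the SFB empty vector and 93.8% with SFB-Ku80. Sense was the majority in both libraries for 61 of the 63.

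Many H/ACA RNAs of this length had no counts. Of the 514 features of this length under the limit, 338 had 0 counts in both libraries and 118 overlap an exon of another feature. Among them 64 had SNORA or SCARNA names, of which 42 overlap another exon and 37 of these 42 had 0 counts. Only 2 of the 89 members, SNORA20 and CHM13_G0022759, overlap another exon. H/ACA RNAs that overlap an exon are therefore largely missing from the members. At the count limit, SNORA22B (8 and 12 counts) and RNA5SP449 (20 and 0) were just inside and LOC124900296 (14 and 5) and RNU4-43P (19 and 0) just outside. At the length limits, RNU1-103P and RNA5SP145 at the lower and SNORA79 and RNU4-82P at the upper limit were just inside. The nearest outside were SNORA54 (139 and 86 counts) and CHM13_G0051416 at 123 bases, and, 1 base too long, the U4 snRNA genes RNU4-2 (7158 and 4062) and RNU4-1 (3649 and 2372).

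Set beside other single-exon features with at least 20 counts, the members had a median close to those of the shorter classes. The median relative log2 ratio was 0.04 for the 127 features of 60 to 100 bases, 0.09 for the 162 between these and the members, and 0.13 for the members. It was -1.29 for the 158 of over 140 and under 200 bases, 0.96 for the 46 of 200 to 230 bases and 0.50 for the 3200 longer ones, with quartiles of -0.70 and 1.41. The interquartile range of the members, from -0.82 to 1.31, overlapped those of all these classes. Shares of higher features were 15.0%, 11.7%, 19.1%, 8.23%, 43.5% and 12.1% in the same order. In this share alone the members stood above their direct neighbours in length and below the class of 200 to 230 bases. Shares of lower features were 18.9%, 6.79%, 8.99%, 41.1%, 19.6% and 11.1%, where the members lay between their direct neighbours. Copies that may share reads are among the higher members, and these differences were not tested.

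**Figure D5:**
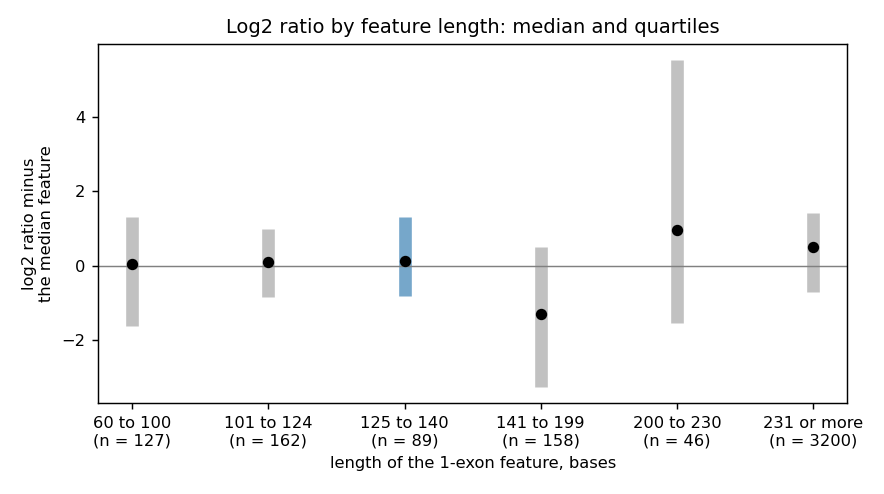
Median (black dot) and interquartile range (bar) of the relative log2 ratio of SFB-Ku80 to SFB empty vector for single-exon features with at least 20 counts, by feature length in bases, with the number of features under each bar. The members (blue) have a median of 0.13 and the features of over 140 and under 200 bases a median of -1.29.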

How the data were processed

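PAR-CLIP libraries of HEK293T cells with SFB-Ku80 or the SFB empty vector were analysed, 1 per condition. The members are features of 125 to 140 bases with 1 exon. Their deposited counts were made by the authors using featureCounts 2.0.2, on an alignment to the CHM13 draft version 1.1. Only pairs with both ends mapped and fragments of at least 18 bases were used, multimapping reads were included, and strand was ignored. Reads on several features were not assigned. STAR 2.7.6a, named in the submitters' processing notes, gave the deposited counts of uniquely mapped pairs, unstranded and by strand. The featureCounts values may count each read of a pair, so they may not share a unit with unique pairs. XRCC5 had 1118 and 43907 counts beside 548 and 21594 unique pairs, but CHM13_G0031369 had 8 and 500 beside 7 and 483. The unit was not tested. The deposited BLAST signal over the rDNA repeat was not used.

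Log2 ratios used a pseudocount of 1, counts outside 219 units of 45S pre-rRNA as total, and the median of features with at least 20 counts as zero. Intervals of a ratio are exact binomial and those of a share Wilson, at 95%. A member counted as higher or lower at 4-fold. An enclosing feature, or host, was the smallest feature of the same strand with at least 20 counts that spans the member. Names came from RefSeq on GRCh38.p14, by aligning gene order, length and spacing without carrying coordinates over. Of the 89 members 79 were paired, 67 with the exact length, 5 were placed between neighbours and 5 stayed unnamed. Those placed were RNA5SP355, RNA5SP473, SNORA58, RNU1-88P and RNU6ATAC, and of these only RNU6ATAC had the same length as in RefSeq. On chromosome 1, 197 of 201 comparable pairings of short features carried the same name.

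Scripts were tested on simulated data. Named were the 8 members with the most counts in each library, the 6 highest and 6 lowest with at least 100 counts, those with SNORA, SCARNA and other small-RNA names, those at the limits, and the H/ACA pathway genes. Members and lists were chosen with earlier results of these data known. Alternatives changed the counter, scaling (edgeR 4.0.16 TMM factors, DESeq2 1.42.0 size factors), pseudocount, count filter and length window. Python 3.11.15 and R 4.3.3 were used. No sequence of a member is printed, as the reference tables used here hold none.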

Additional observations from a re-analysis of the deposited data

How the results depend on the processing

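No paired analysis was possible because there is only 1 library of each kind. The median relative log2 ratio of the members (0.13) was 0.92 by uniquely mapped pairs and 1.17 by the sense column. Without centring it was -0.86 with all counts as the total and, in an alternative chosen after seeing the data, -0.60 with the counts outside the 45S units, so that the sign depends on the reference chosen. It stayed between -0.07 and 0.58 under the other alternatives. The 17 members that were 4-fold higher became 9 in both of those uncentred scalings and 47 of 265 with a limit of 1 count, and lay between 12 and 20 otherwise. The 8 that were lower became 1 by unique pairs and 1 by sense pairs, 17 with all counts, 4 with a pseudocount of 5, 2 with at least 100 counts, 18 with at least 1 count, 3 in the narrower length window and 2 among paired snoRNA and scaRNA names. The member share of 0.0919% in SFB empty vector became 0.101% by unique pairs, 0.0893% of all counts, 0.0204% as unique pairs of all read pairs and 0.0709% without RNU1-88P and SNORA7B. The share of 0.0681% in SFB-Ku80 became 0.279%, 0.0552%, 0.0174% and 0.0555% in the same order. None of these alternatives left the pair of chromosome 17 features out of the total. The cause of these shifts was not tested. Of 239 recomputed ratios of 29 single members, 162 stayed within the counting interval and 77 moved beyond it. In 5 the sign turned, all by unique or sense pairs: SNORA9B (0.89 and 1.13), LOC124900552 (0.06 and 0.44) and SCARNA21 by sense pairs (0.04). Unmapped pairs made up 21.5% of the SFB empty vector library and 47.1% of SFB-Ku80, and multimapping pairs 25.1% and 27.0%.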

Other observations

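Among features of H/ACA length, 2 had 0 counts without regard to strand but gave sense pairs in the stranded column. Each overlaps an exon of another feature, which for SNORA72 is on the opposite strand. Whether the overlap accounts for their 0 counts was not tested. RNA5SP352, a 5S rRNA pseudogene, had 366 unique sense pairs with the SFB empty vector and 159 with SFB-Ku80, beside 38 and 9 antisense. SNORA72 had 33 and 15 unique sense pairs, with 1 and 0 antisense. Neither is among the 89 members, since the limit was set on the unstranded counts.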
